A study of Homo sapiens with 208 samples.

Results

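The first hours of gefitinib in PC9 cells were examined on 12 one-colour arrays, 6 with the drug and 6 without, of a series of 8 time courses with 26 arrays each. PC9 is a human lung adenocarcinoma line whose EGFR carries a small deletion in the kinase domain that keeps the receptor active, and gefitinib is an inhibitor of that kinase. The 12 arrays were chosen by their labels, namely the line PC9, the treatment gefitinib (spelled gefinitib on some samples) or no treatment, no added EGF, and the time labels 0, 0.5, 1, 2, 3 and 4 h. Cells of every group had been starved for 48 h, and 0.5 μM gefitinib was added 2 h before time 0, so these arrays cover 2 to 6 h of drug. The comparison groups were PC9 cells at the same times with 100 ng/ml EGF from time 0, with or without gefitinib (12 arrays), PC9 cells with and without gefitinib at the later time labels from 5 to 24 h (40 arrays), and the gefitinib-resistant line PC9GRM2, a clone selected from PC9 by long exposure to the drug, with and without gefitinib at the early times (12 arrays). Each time point of a course was hybridized once. The 6 time points therefore stood in for replicates, and the p-values measure the spread between time points of a course and not between separate cultures.

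In cells with an active EGFR, the receptor signals through RAS and the kinase ERK, which switches on immediate-early transcription factors together with phosphatases and Sprouty and SPRED proteins that dampen the same pathway. It also signals through PI3K and AKT, which holds FOXO transcription factors out of the nucleus, and FOXO factors induce genes that slow growth or promote cell death. Lung cancer cells with such EGFR mutations depend on these signals for growth and survival.

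Values are log2 of array intensities that were quantile normalized, and a difference of 1 is a 2-fold change. On the 12 arrays, between 32110 and 36332 of 45015 features were well above background and between 672 and 1702 were saturated. The 6 epithelial markers (EPCAM, CDH1, KRT7, KRT8, KRT18 and KRT19) were well above background on all 12 arrays. Of the lung lineage markers NAPSA, SFTPB, SFTPC and SFTPD were well above background on all 12, and NKX2-1 on none. Fibroblast markers were well above background on all 12 arrays for 0 of the 5 genes with a probe, and the leukocyte marker PTPRC and the endothelial markers KDR and TEK on none. The leukocyte markers CD3E, CD14 and CD68 and the endothelial markers PECAM1 and VWF had signal on all 12. Some of these markers moved with the drug, since limma called SFTPD (1.20), NAPSA (0.69) and VWF (0.54) higher and KRT7 (-0.46) lower. The summed level of the lung lineage markers lay between 8.2 and 8.49 on the log2 scale without and between 8.67 and 9.53 with gefitinib, whereas the sums of the epithelial, fibroblast and endothelial markers overlapped. The part of these markers in the other results was not tested. The arrays of 5 and 6 h of drug were scanned on another day than those of 2 to 4 h and stood apart from them, with an SD over genes around the median of their group of 0.39 to 0.46, compared with 0.18 to 0.36 earlier. Bulk RNA cannot tell fewer cells of a type from less RNA per cell.

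Gefitinib changed a large share of the transcriptome within these hours. Limma's moderated test on the 6 paired differences called 4705 of 13455 genes (35%), at a Benjamini-Hochberg adjusted p under 0.05, of which 2267 rose (16.8% of those tested) and 2438 fell (18.1%). Most of these changes were small, with a median size of 0.53 on the log2 scale. A change of at least 2-fold was called for 509 genes (3.78%), 251 upward and 258 downward, and a change of at least 4-fold for 34 upward and 28 downward. The 6 arrays of a group did not overlap the other 6 for 1527 of 13380 genes with all 12 values (11.4%), and 4813 (36%) differed in the same direction at all 6 times. Without the pair at 4 h of drug 3116 genes were called, and with the 4 pairs of 2 to 4 h alone 4030.

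The largest fall was in SPRY4 and the next in DUSP6. SPRY4, a Sprouty inhibitor of RAS and ERK signaling, lay between 9.96 and 10.95 on the untreated arrays, with a median of 10.72, and between 4.62 and 6.54 with gefitinib, with a median of 6.12. Its mean difference was -4.85 on the log2 scale (28.8-fold lower, SE 0.19, n = 6 time points, limma adjusted p = 6.7e-06). DUSP6, the phosphatase that inactivates ERK, had untreated values of 12.80 to 13.34 and values of 7.37 to 9.32 with the drug, a 23.3-fold fall. For both genes every treated array was below every untreated array, and the lowest treated value was at 6 h of drug.

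FOS and FOSL1 encode subunits of the AP-1 transcription factor. FOS was between 11.37 and 12.18 without and between 8.05 and 8.54 with the drug (difference -3.56, SE 0.10, n = 6, limma adjusted p = 6.49e-07), and FOSL1 fell from 8.31 to 9.39 down to 3.72 to 6.16 (difference -4.07). The treated FOS values lay within a narrow range from the first array onward, whereas those of FOSL1 declined from 6.16 at 2 h to 3.72 at 6 h of drug. EGR1, a zinc finger immediate-early factor, fell by 2.71, from a range of 9.81 to 10.58 to a range of 6.84 to 8.29. The highest treated EGR1 value was that of 2 h of drug, and the groups did not overlap.

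The other falls among the 12 largest were those of DUSP2, a nuclear phosphatase of MAP kinases (-3.01), EPHA2, an ephrin receptor (-3.00), ANGPTL4, a secreted inhibitor of lipoprotein lipase (-2.89), CSF2, the cytokine GM-CSF (-2.87), TNS4, a focal adhesion protein (-2.71), NOG, a secreted BMP antagonist (-2.47), and MFSD2A, a lipid transporter (-2.43). EPHA2 lay between 10.32 and 10.76 without and between 6.68 and 8.18 with gefitinib. The 12 falls were ranked by size among called genes with the same direction at all 6 times. They also had to be well above background on at least 3 of 6 arrays of each group. In all 12 the groups of arrays did not overlap, beside 11.4% of all genes, but this was largely set by the choice. CXCL8, the chemokine interleukin-8, exceeded background clearly on 6 of 6 arrays without and 0 of 6 with gefitinib, so that it was at least 3.5-fold lower with the drug. Its limma adjusted p of 0.00028 rests on treated values that were not well above background. The untreated mean of CXCL8 was itself dim, at 4.45 on the log2 scale. The bound rests on the lowest signal well above background of each treated array.

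The largest rise was in RADIL, a RAP1 effector in cell adhesion. Its untreated values lay between 4.51 and 5.13, and its treated values were 7.39, 7.99, 8.41, 9.35, 9.96 and 10.64 at 2, 2.5, 3, 4, 5 and 6 h of drug. The mean difference was 4.09 (17-fold, SE 0.35, n = 6, limma adjusted p = 0.000176), and all treated arrays were above all untreated arrays. VAV3, a guanine nucleotide exchange factor, rose by 3.51 from 6.61 to 8.73 up to 9.76 to 12.13, and its second probe by 2.30. MYB, a transcription factor of progenitor cells, rose by 3.34 from 4.89 to 7.73 up to 8.01 to 10.47. The untreated values of VAV3 and MYB were themselves higher at 5 and 6 h than at 2 to 4 h.

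DEPP1 (DEPP), a FOXO target that lowers antioxidant defence, lay between 7.64 and 8.98 without and between 10.95 and 11.81 with the drug, a rise of 3.16 (SE 0.19, n = 6, limma adjusted p = 3.85e-05). It was already at 11.70 on the first treated array. TNFSF10, the death ligand TRAIL, rose by 2.97, from 5.19 to 5.68 up to 7.00 to 9.42, with its lowest treated value at 2 h and its highest at 6 h. BMF, a pro-death BH3-only protein, had treated values of 8.31 to 8.66 while the untreated values went from 6.79 on the first array to 5.13 on the last, and the mean difference was 2.53. The remaining large rises were in ZNF608 (2.74), the ERBB2-binding adaptor GRB7 (2.51), the cell cycle regulator RGCC (2.49), the potassium channel KCNJ13 (2.49), the keratin-associated KRTAP1-5 (2.46) and the sphingosine receptor S1PR1 (2.42). The groups did not overlap for any of the 12, which was largely set by the choice, since the rises were picked by the same rule as the falls. MUC15, DIRAS2, CYP4Z1 and EPHA6 were well above background on all 6 treated and on 0 of 6 untreated arrays. They were at least 2.68-fold, 2.6-fold, 2.2-fold and 1.51-fold higher with the drug. These bounds rest on the lowest signal well above background of each untreated array. The treated means were dim, at 4.34, 4.36, 4.05 and 3.51, close to or below the log2 of a floor of 16. A floor of 16 therefore leaves little of these rises, and EPHA6 had a difference of 0.00 with it.

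**Figure D1:**
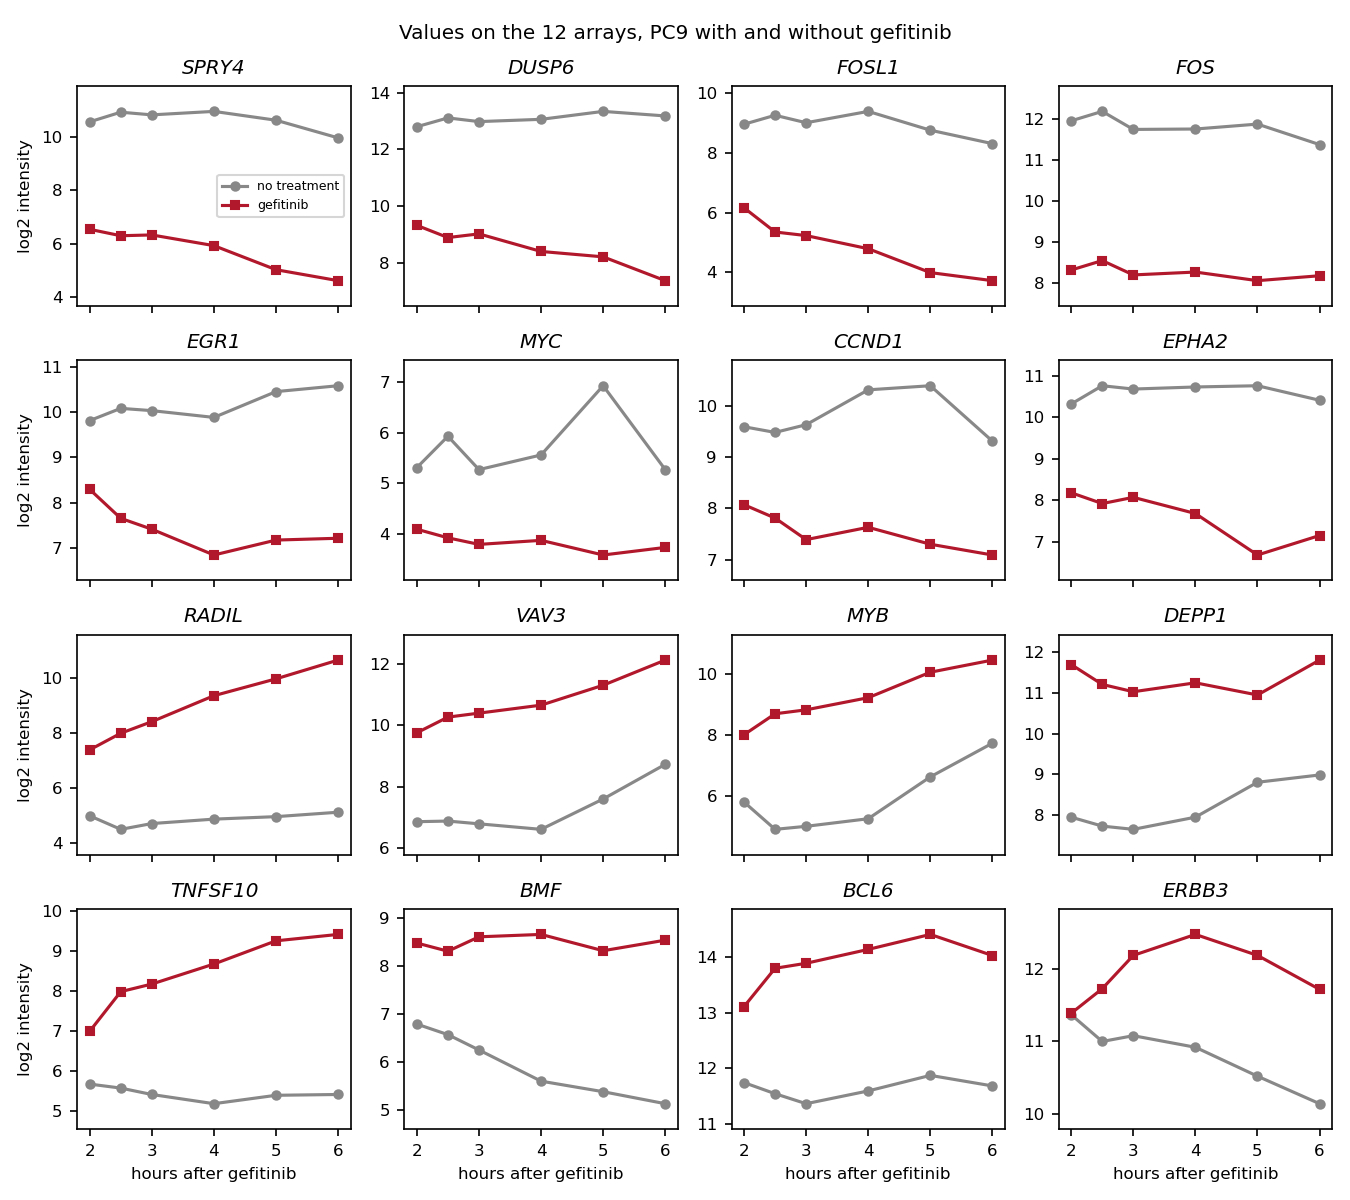
Log2 intensity (vertical axes, each with its own range) of 16 genes on the 12 PC9 arrays against hours after gefitinib (horizontal axes), in grey without treatment and in red with gefitinib. The red and grey values of SPRY4 are separated at every time, and ERBB3 starts at 11.39 with and 11.37 without the drug and separates afterward.

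EGFR itself was at nearly the same level in both groups, between 11.69 and 12.01 untreated and between 11.59 and 12.05 with gefitinib. The mean difference of -0.08 (SE 0.10, n = 6) was not called (limma adjusted p = 0.579), and the groups overlapped.

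The gene lists were chosen with earlier results of these data known. Their counts, here and below, may therefore be partly set by that choice. Among the feedback regulators of ERK, 11 of 12 tested genes fell and 0 rose, with a median difference of -2.09, beside a median of -0.01 over all tested genes and 18.1% of these called lower. The median was -0.60 with normexp background correction, with 11 falls and 1 rise. Sprouty and SPRED genes made up part of the group, with SPRY2 at -1.57, SPRY1 at -0.77, SPRED1 at -2.03 and SPRED2 at -2.37. SPRED2 had a second probe with a difference of -0.67. The phosphatase genes DUSP4 and DUSP7 fell by 2.16 and 2.19 and DUSP5 by 0.53, PHLDA1 by 2.24, and the EGFR inhibitor ERRFI1 by 1.09. IER3 was at 0.29 (adjusted p = 0.148). Untreated DUSP4 lay between 12.28 and 12.56 and treated DUSP4 between 9.57 and 11.26, the latter declining at each successive time.

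Of the immediate-early genes, 12 of 18 fell and 2 rose (median -1.12, and -0.38 with normexp). Beside FOS, FOSL1 and EGR1, the falls included EGR3 (-2.02), EGR2 (-1.55), EGR4 (-1.53), JUN (-1.53), JUNB (-1.32), NR4A1 (-1.01) and ATF3 (-0.97). BTG2, an antiproliferative gene, and FOSL2 rose by 0.67 and 0.43. FOSB, IER5 and NR4A2 had differences of 0.11, 0.05 and -0.09 and were not called. SRF, whose product binds the serum response element, had a difference of -1.10 that missed the threshold (adjusted p = 0.06).

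The ETS and MYC group had 6 falls and 2 rises among 11 genes. MYC, the growth-promoting transcription factor, lay between 5.27 and 6.93 without and between 3.58 and 4.09 with gefitinib (difference -1.88, SE 0.24, n = 6, limma adjusted p = 0.000957). The highest untreated MYC value belonged to the pair of 5 h, where the difference was -3.34. ETV5, ETS1 and ETS2 fell by 1.37, 1.06 and 0.91, whereas the epithelial factors ELF3 and EHF rose by 1.86 and 0.83. ELF3 lay between 9.39 and 10.67 without and between 11.45 and 12.11 with the drug. Among Kruppel-like factors, 3 of 10 fell and 2 rose. KLF2 fell by 2.22, with a second probe at -0.28, and KLF3 rose by 0.96, with a second probe at -0.02, so that the choice of probe decides both values. The counts of the Kruppel-like group lie close to the 16.8% and 18.1% of all tested genes called higher and lower.

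Ligands of the ERBB receptors fell as well, with 5 of 7 tested genes called lower and 0 higher (median -1.05). The median depended on the processing and was -0.09 with normexp, -0.27 with no filter on dim genes and -0.52 with a floor of 16, where 4 or 5 ligands were still called lower. HBEGF lay between 9.79 and 11.06 without and between 7.33 and 9.03 with the drug, a fall of 2.07 (SE 0.11, n = 6, limma adjusted p = 2.6e-05). AREG fell by 1.76, TGFA by 1.41, EREG by 1.05 and BTC by 0.52. EGF and NRG4 had differences of 0.18 and 0.25 and were not called. Of the receptors, ERBB3 rose by 1.11, ERBB4 by 0.84 and ERBB2 by 0.81, and these were the 3 rises among 12 receptors and negative regulators, beside 3 falls (SOCS5, SOCS4 and LRIG2). Treated ERBB3 lay between 11.39 and 12.48 and untreated ERBB3 between 10.14 and 11.37, a gap of 0.02 between the groups. Of other receptor kinases, FGFR1, INSR and IGF1R rose by 0.98, 0.66 and 0.59, and MET fell by 0.69 with the probe used and had 0.05 with its brightest probe. INSR lost its call without the pair at 6 h of drug.

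In the group of insulin signaling and FOXO factors and targets, 11 of 21 genes rose and 6 fell (median 0.53, and 0.25 with normexp). BCL6, a transcriptional repressor, rose by 2.27, PDK4, which limits entry of pyruvate into the citric acid cycle, by 2.27, PIK3IP1, an inhibitor of PI3K, by 2.00 and the cyclin gene CCNG2 by 1.82. PDK4 lay between 7.11 and 7.59 without and between 9.43 and 10.00 with the drug. KLHL24 and CITED2 rose by 1.76 and 1.49. The 6 falls were in genes of the insulin pathway and of the Tribbles family, namely PIK3R1 (-1.21), TRIB2 (-1.16), PIK3R3 (-0.91), IRS1 (-0.86) and TRIB1 (-0.79), and in FOXO3 itself (-0.51), whereas FOXO4 and FOXO1 rose by 0.81 and 0.65.

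Of the BH3-only genes, BMF and PMAIP1 rose and BID fell among 8. PMAIP1, which encodes NOXA, rose by 0.35, a call that was lost without the pair at 4 or at 6 h of drug. BCL2L11, which encodes BIM, had a difference of -0.08 (adjusted p = 0.756) with the probe used, and its probes ranged from -0.08 to 0.90. BID fell by 0.34, but its brighter probe gave 0.11, and it was not called when any 1 of the 5 pairs from 2.5 to 6 h was left out. Of the survival genes and effectors, 3 of 7 fell and 0 rose. BCL2L1, which encodes BCL-XL, fell by 1.83 from a range of 6.66 to 8.18 to a range of 4.48 to 6.54, and MCL1 fell by 0.74.

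Chemokines and cytokines fell in 8 of 10 tested genes, with 0 rises (median -0.76, -0.13 with normexp and -0.38 with no filter on dim genes), and the other 8 of the 18 listed did not pass the filter on dim genes. CSF2 was between 5.82 and 6.92 without and between 2.75 and 4.15 with the drug, LIF fell by 1.51, CXCL2 by 1.18, IL1B by 0.77 and CXCL1 by 0.75. Of the NF-kB feedback genes 4 of 9 fell, with TNFAIP3 at -1.55. TGF-beta and BMP response genes had 8 falls and 2 rises among 13. The helix-loop-helix inhibitor ID1 fell by 1.45 while its relative ID4 rose by 1.44, and SMAD7 and BMP4 fell by 0.97 and 1.03. ZNRF3, which removes Wnt receptors, fell by 1.53, and the Wnt feedback gene AXIN2 rose by 1.11, in a group of 13 with 3 rises and 2 falls.

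Among cell cycle genes, CCND1, the G1 cyclin D1, lay between 9.31 and 10.39 without and between 7.09 and 8.07 with gefitinib (difference -2.24, SE 0.20, n = 6, limma adjusted p = 0.000183), and CCNE1 and the inhibitor CDKN1A fell by 1.13 and 1.67. The inhibitor genes CDKN1C, CDKN2B, CDKN2C and CDKN1B rose by 1.56, 0.77, 0.76 and 0.69. Of 20 S-phase genes, 12 rose and 0 fell (median 0.45, beside 16.8% of all tested genes called higher). Their median was 0.58 with the 4 pairs of 2 to 4 h of drug alone. With the 2 pairs of 5 and 6 h alone it was 0.25, with 1 rise and 0 falls, and those pairs called 881 of all tested genes. Under EGF, 12 S-phase genes rose and 1 fell (median 0.28). CDT1, which licenses replication origins, rose by 0.96, the helicase subunit MCM5 by 0.86, the ribonucleotide reductase subunit RRM1 by 0.61 and E2F1 by 0.62. E2F2 rose by 1.01, and its second probe had 0.09. Treated RRM1 lay between 12.36 and 12.82 and untreated RRM1 between 11.77 and 12.17. Of 19 mitotic genes 6 rose and 0 fell (median 0.27), with CDK1 at 0.66.

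Genes for making ribosomes fell in 13 of 19 cases and rose in 0 (median -0.66), among them the helicase DDX21 (-1.24), the polymerase I subunit POLR1B (-1.07) and DKC1 (-0.98), which lost its call without the pair at 4 or at 6 h of drug. ATF4 targets and aminoacyl-tRNA synthetases fell in 12 of 19 and rose in 0 (median -0.60), with SARS1 and PSAT1 at -0.99. Scaling to the 75th percentile gave 9 falls and 1 rise with a median of -0.30, and the brightest probe a median of -0.35. SARS1 was saturated on 4 untreated arrays and PSAT1, DDX21 and DKC1 on 1 each, and all were below saturation with the drug, so that their untreated levels are lower limits on those arrays. Glycolysis genes had 7 falls and 2 rises among 19 (SLC16A3 at -1.04, also saturated on 4 untreated arrays), but 5 falls and 4 rises with the 75th percentile and 2 of each with normexp, and sterol and fatty acid synthesis genes 2 falls and 3 rises among 19. Interferon-stimulated genes rose in 7 of 15 and fell in 0 (median 0.38, and 0.12 with normexp), led by OAS1 (0.76) and IFI6 (0.64). Of 16 lysosome and autophagy genes 3 rose, the kinase ULK1 by 1.33, ATG14 by 0.90 and GABARAPL1 by 0.75, and the regulator TFEB fell by 0.56. Clock genes had 5 falls, with PER2 at -1.38, and a rise of PER1 of 0.50, among 14, and YAP-TEAD targets 3 falls (F3 at -1.97, ANKRD1 and CCN1) and 2 rises among 12. ANKRD1 was not called when any 1 of the 5 pairs from 2.5 to 6 h was left out. The counts of the lysosome, sterol, YAP-TEAD, Wnt and reference groups, of the BH3-only genes and of both receptor groups lie close to the 16.8% and 18.1% of all tested genes called higher and lower, and are not results about these groups. Heat shock chaperones fell in 6 of 12 (median -0.42), but the median was -0.05 with the brightest probe, -0.16 with the mean of probes and -0.24 without the pair at 5 h of drug, and HSPD1 and HSP90AA1 changed sign with their brightest probe. Of 12 genes often taken as reference, ACTB rose by 0.26 but had -0.01 with the mean of its probes, GUSB rose by 0.50, YWHAZ fell by 0.90, and the other 9 were not called. YWHAZ was saturated on 2 untreated arrays and ACTB on all 12. With the 4 pairs of 2 to 4 h alone, 11 ERK feedback regulators fell and 0 rose, 5 ERBB ligands fell and 1 rose, 10 ribosome biogenesis genes fell and 0 rose (median -0.37), 12 genes of the FOXO group rose and 6 fell, and 14 S-phase genes rose and 0 fell. On those pairs 3 heat shock chaperones fell and 1 rose (median -0.11), 4 glycolysis genes fell and 4 rose (median -0.11), and 3 mitotic genes rose and 0 fell.

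**Figure D2:**
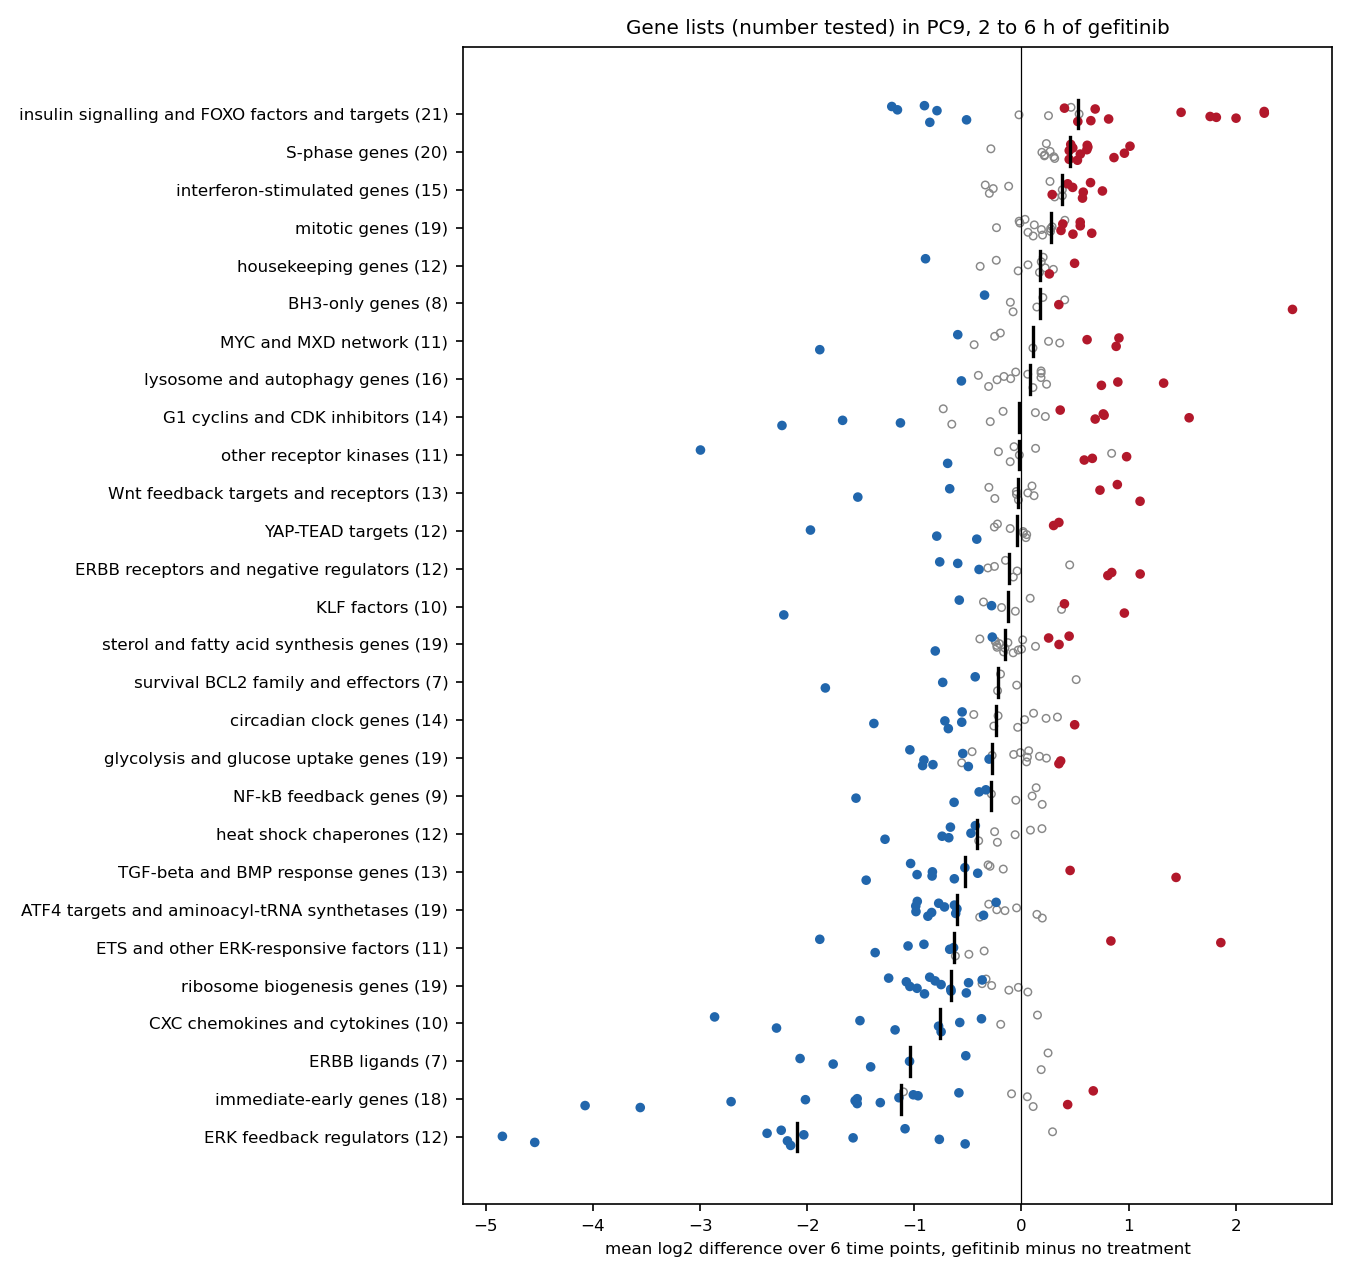
Mean log2 difference, gefitinib minus no treatment (horizontal axis), of each tested member of 28 gene lists (rows, number tested in brackets), with filled red points for genes called higher, filled blue points for genes called lower, open points for genes not called and black bars for the median. ERK feedback regulators are at the bottom with a median of -2.09, and the group of insulin signalling and FOXO factors and targets is at the top with 0.53.

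The promoters of some of these genes are shown because genes that move together often share short motifs close to their start. All promoters shown hold a motif, so they do not show how common a motif is among the changed genes. Each is the stretch of 250 bases before the start in RefSeq, build GRCh38.p14, with the motif in capitals, and the position is counted back from the start. EGR1 (chr5:138465229-138465478, plus strand) has a pair of serum response elements, the CArG boxes, that begin at -105 and -83. EPHA2 (chr1:16156070-16156319, minus strand) and AREG (chr4:74444886-74445135, plus strand) hold a cAMP response element (CRE) at -51 and -65. DEPP1 (chr10:44978810-44979059, minus strand) and MYB (chr6:135181058-135181307, plus strand) hold the FOXO motif at -180 and -14.
EGR1: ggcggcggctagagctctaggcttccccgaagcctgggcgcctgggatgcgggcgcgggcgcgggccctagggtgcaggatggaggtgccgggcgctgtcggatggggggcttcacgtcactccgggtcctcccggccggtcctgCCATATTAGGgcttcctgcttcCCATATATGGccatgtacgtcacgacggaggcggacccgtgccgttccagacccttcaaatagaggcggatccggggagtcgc
EPHA2: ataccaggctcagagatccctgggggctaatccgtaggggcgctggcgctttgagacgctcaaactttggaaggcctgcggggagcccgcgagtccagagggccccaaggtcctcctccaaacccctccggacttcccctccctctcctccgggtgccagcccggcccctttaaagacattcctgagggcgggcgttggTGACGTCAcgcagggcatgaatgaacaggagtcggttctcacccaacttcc
AREG: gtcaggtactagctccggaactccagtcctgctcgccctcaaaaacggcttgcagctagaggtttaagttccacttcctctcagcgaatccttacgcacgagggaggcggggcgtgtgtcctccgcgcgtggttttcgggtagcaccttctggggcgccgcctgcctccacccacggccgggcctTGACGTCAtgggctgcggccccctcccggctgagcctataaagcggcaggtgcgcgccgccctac
DEPP1: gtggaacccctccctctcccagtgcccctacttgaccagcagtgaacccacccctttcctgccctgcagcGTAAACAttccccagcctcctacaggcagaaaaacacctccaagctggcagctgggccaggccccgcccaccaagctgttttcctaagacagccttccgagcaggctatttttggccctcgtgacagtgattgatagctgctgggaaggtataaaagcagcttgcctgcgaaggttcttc
MYB: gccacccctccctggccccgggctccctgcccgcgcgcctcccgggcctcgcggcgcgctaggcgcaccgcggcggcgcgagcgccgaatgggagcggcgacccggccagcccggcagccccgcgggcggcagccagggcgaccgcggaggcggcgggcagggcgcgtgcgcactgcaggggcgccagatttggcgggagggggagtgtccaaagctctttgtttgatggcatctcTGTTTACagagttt

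Both strands of promoter windows that also include 50 bases after the start were searched for 5 motifs, none of which contains another. FOXO letters (GTAAACA) were found in 19 of 196 windows of genes at least 2-fold higher (9.69%) and in 9 of 187 windows of genes at least 2-fold lower (4.81%), beside 255 of 10812 windows of tested genes (2.36%) and 931 of all 27305 windows (3.41%). AP-1 letters (TGAGTCA) were in 7.14% of the windows of the higher and 6.95% of those of the lower genes, beside 3.39% of tested and 4.92% of all. CRE letters (TGACGTCA) were in 1.53% of the higher and 3.74% of the lower, beside 3.02% of tested and 1.98% of all, E-box letters (CACGTG) in 9.69% and 15%, beside 9.84% and 7.43%, and the serum response element in 1.53% and 1.6%, beside 1.13% and 1.29%. These shares are descriptions without a test. A match is no evidence of binding, and a window without one says nothing about the factor.

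The size of the response differed between time points. The SD of the differences over genes was 0.45, 0.44, 0.44 and 0.53 at 2, 2.5, 3 and 4 h of drug and 0.78 and 0.67 at 5 and 6 h. The number of genes at least 2-fold different in a single pair of arrays was 424 at 2 h, 785 at 4 h, 2325 at 5 h and 1522 at 6 h. The arrays of 5 and 6 h were scanned on another day than the earlier 4 pairs, so that the time and the scan day cannot be told apart.

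**Figure D3:**
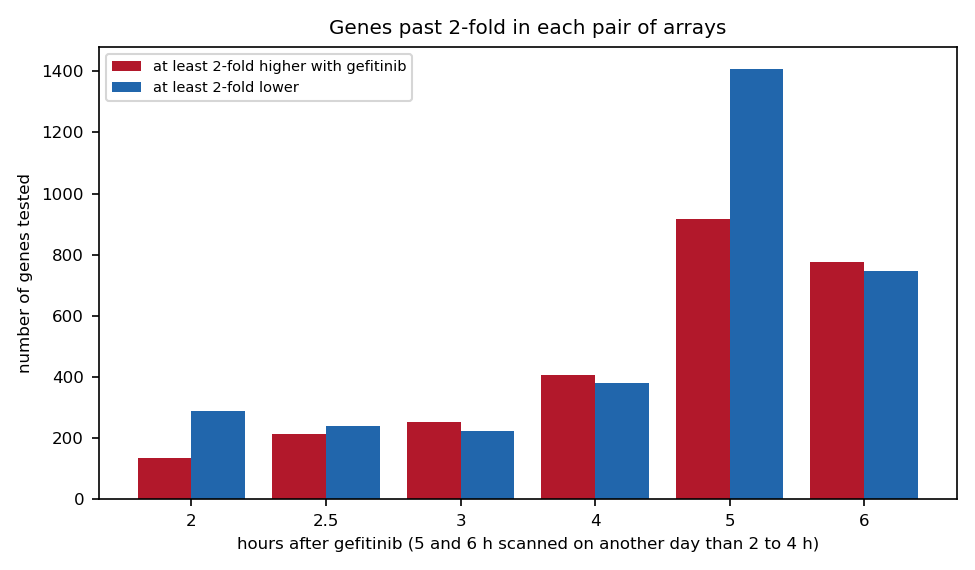
Number of tested genes (vertical axis, from 0) that differed at least 2-fold between the paired arrays of each time point (horizontal axis, hours after gefitinib), in red for higher and in blue for lower with gefitinib. The tallest bar is 1409 genes lower at 5 h, beside 288 at 2 h.

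A linear change of the difference with time was called for 523 of 13453 genes (3.89%). ERK feedback regulators had 7 of 12 members among them. DUSP6 differed by -3.49 at 2 h and by -5.80 at 6 h of drug (slope -0.53 per hour, SE 0.06, n = 6 time points, limma adjusted p = 0.0147), and SPRED2 had a slope of -0.75 per hour, the steepest downward slope beside those of HSD3B1, a steroid dehydrogenase (-0.75), and the adaptor SHC3 (-0.73). Upward, the Notch target HEYL (0.94), KCNJ13 (0.81) and the proton pump subunit ATP6V1B1 (0.76) were steepest, and RADIL had 0.71 per hour. HEYL exceeded background clearly on 2 of the 6 arrays without drug. These calls rest on few points, since 0 genes were called without the pair at 2.5 h, and 0 with the 4 pairs of 2 to 4 h of drug alone. Without the pairs at 2, 3, 4, 5 and 6 h of drug the counts were 43, 24, 54, 965 and 5.

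With EGF added at time 0, the same drug contrast on 12 other arrays of the same slides called 4748 of 13455 genes (35.3%), 3108 without the pair at 4 h of drug and 2860 without that at 5 h. The pair of the 0 h label (2 h of drug) had thus had no time with EGF. Of the 509 genes called at least 2-fold without EGF, 509 had the same direction with EGF and 493 (96.9%) were called in it, beside 82.8% and 34.8% of all tested genes. The difference between the contexts was tested directly, and limma called 0 of 13454 genes (0%), with 1260 at an unadjusted p under 0.05, and the unmoderated paired test of the methods also called 0. The median absolute difference between the contexts was 0.12, and 7 genes differed by at least 2-fold. KLF2 fell by 4.01 with EGF and by 2.22 without (adjusted p of the difference = 0.166), and EGR1 by 3.92 and 2.71 (0.347). KLF2 reached 13.78 under EGF alone and lay between 8.00 and 8.52 under EGF and gefitinib, close to the range of 8.07 to 8.51 with gefitinib alone.

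Later in the course, between 7 and 26 h of drug, 9785 of 13457 genes (72.7%) were called. That window has 20 pairs of arrays beside the 6 early ones, so the counts of calls do not compare the sizes of the responses. Some later pairs were unequal in features well above background. The untreated and treated arrays had 24755 and 32241 at the 5 h label and 26310 and 29727 at the 6 h label. At the 14 h label they had 29704 and 35956. The part of this in the later differences was not tested. Tested directly, the early and later responses differed for 5908 genes (43.9%). The later pairs were on other slides than the early ones, and those from the 7 h label on were scanned on other days. The window and the scan day can therefore not be fully told apart. Among the list medians, that of ERK feedback regulators was -2.83 later beside -2.09 early, whereas those of the immediate-early genes (-0.86 beside -1.12) and of the ATF4 group (-0.15 beside -0.60) were smaller later. The difference between windows was called for 8 of 12 ERK feedback regulators, 8 of 18 immediate-early genes and 8 of 19 genes of the ATF4 group. The shares of the immediate-early and ATF4 lists lie close to the 43.9% of all tested genes. Of the 509 early 2-fold genes, 457 (89.8%) were called later in the same direction, beside 51.8% of all tested genes, and 17 in the opposite direction. ETV5 had a difference of -1.37 early and -5.87 later (early minus later 4.5, SE 0.52, limma adjusted p = 2.65e-07), and ANKRD22 and the ubiquitin ligase gene MARCHF4 differed by 4.43 and 4.33. SPEF2, a sperm flagellar gene, ATP6V1B1 and EEF1AKMT2, a methyltransferase gene, rose later by 5.16, 5.88 and 4.12, with differences of -4.55, -4.44 and -4.18, early minus later. DUSP6 fell by 7.49 later, compared with 4.54 early, and RADIL rose by 7.78, compared with 4.09.

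S-phase genes differed between the windows, with the limit on slides and scan days given above. The early window had 12 rises and 0 falls among 20, the later 1 rise and 18 falls with a median of -1.36, and the difference between the windows was called for 19 of 20. MCM5 was at 0.86 early and -0.79 later (adjusted p of the difference = 3.35e-05) and E2F1 at 0.62 and -1.78 (5.08e-07). PES1 fell by 1.04 early and rose by 1.11 later, and RCSD1, which encodes a capping protein regulator, rose by 1.75 early and fell by 1.27 later. KRTAP1-5 had a difference of 2.46 early and -0.13 later, and MYB of 3.34 and 1.63. BMF and TNFSF10 rose further, to 4.15 and 4.76 later. With the pairs of 5 and 6 h of drug alone as the early window, the count of genes that differed between windows was 922.

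In the resistant line PC9GRM2, gefitinib over the same hours called 2299 of 13457 genes (17.1%). Of the 509 PC9 genes, 493 had the same direction there and 337 (66.2%) were called in it, beside 68.8% and 15.6% of all tested genes, with 0 called in the opposite direction. The ERK feedback regulators fell in 11 of 12, with a median of -1.63, and SPRY4 and DUSP6 fell by 3.73 and 3.98. The S-phase genes, of which 12 of 20 rose in PC9, had 0 rises and 2 falls in PC9GRM2, with a median of -0.22. The difference between the lines was called for 345 of 13455 genes (2.56%), among them 7 of the 20 S-phase genes. MYB rose by 1.69 in PC9GRM2 and by 3.34 in PC9 (difference -1.65, SE 0.21, n = 6, limma adjusted p = 0.0284), and KLF2 had -0.32 in PC9GRM2 and -2.22 in PC9 (difference 1.90, adjusted p = 0.0284). Both were well above background on all arrays of both lines. The fall of KLF2 in PC9 depends on the choice of probe, as given above, so its line difference rests on the probe used. For the other large differences the resistant line had little signal. RCSD1, the decoy TRAIL receptor gene TNFRSF10C and CXCL8 were well above background on 0 of its 12 arrays and the transcription factor gene BNC1 on 1, and their differences of -1.80, -1.82, 2.17 and 2.10 are therefore those of PC9 against a line without measured signal. Leaving out the pair at 2.5, 3, 4 or 5 h of drug reduced the 345 genes to 0, leaving out that at 6 h to 1 and that at 2 h to 150. The lines shared no slide and no scan day, and 0 features were saturated on the PC9GRM2 arrays of these hours, so that line and scanning cannot be told apart.

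**Figure D4:**
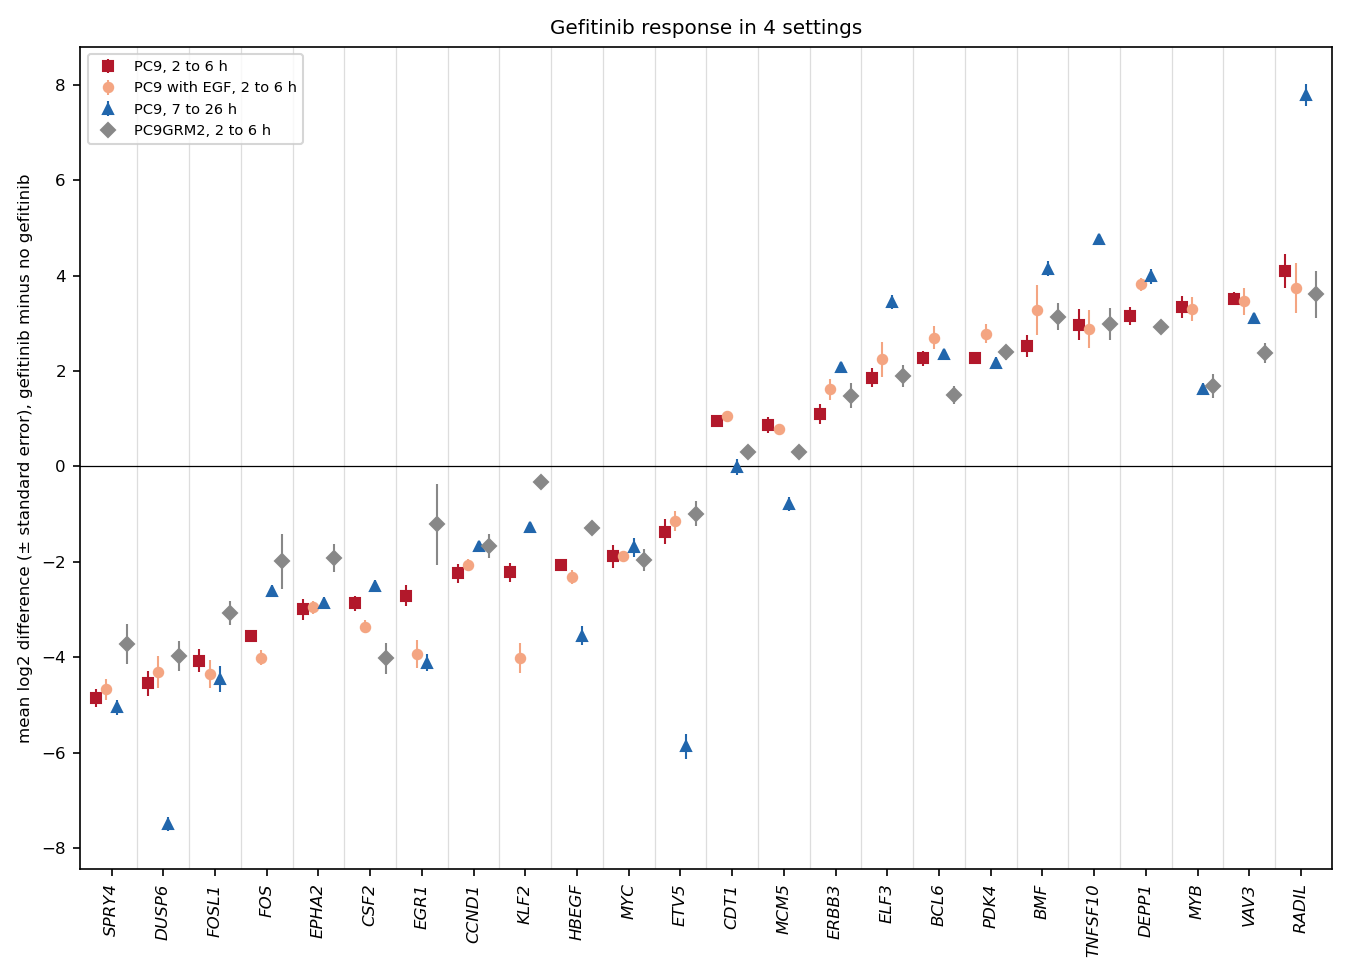
Mean log2 difference between gefitinib and no gefitinib (vertical axis, bars for the standard error over time points) of 24 genes in PC9 at 2 to 6 h (red squares), PC9 with EGF at 2 to 6 h (orange circles), PC9 at 7 to 26 h (blue triangles) and PC9GRM2 at 2 to 6 h (grey diamonds). DUSP6, ETV5 and RADIL extend furthest in the later window, to -7.49, -5.87 and 7.78, and MCM5 is at 0.86 early and -0.79 later.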

How the data were processed

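Cy3-labelled RNA of each sample was hybridized to 1 Agilent 44K array. The authors deposited intensities as Feature Extraction 10.5.1.1 wrote them (per the file headers), background-subtracted and detrended, without normalization between arrays, and, in other columns, the scanner software's spot flags (outlier, saturated, above background). Intensities were quantile normalized over all arrays of the series and 45015 features, as the methods state, and the result differed from the authors' deposited normalized table by at most 0.00155 on the log2 scale. A floor of 1 was set before log2 was taken, and outlier spots were removed (0.0644% of tested values). Of 41000 probes, 25448 matched a symbol in RefSeq GRCh38.p14 by accession, used for names, and 15552 did not. For each of 17254 genes the probe of largest variance was used, and 13457 were tested, being well above background on at least 13 of 26 arrays of a course. Gefitinib minus control differences, paired by time point because each slide held the 4 treatments of a line at a time point, were tested with limma 3.58.1 (R 4.3.3), two-sided, with Benjamini-Hochberg adjustment at 0.05. The limma script was tested on simulated data. The spline smoothing of the methods was not applied. Single arrays limit the precision of each value.

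The genes named include the 12 largest rises and falls. These came from called genes with the same direction at all 6 times, well above background on at least 3 of 6 arrays of each group. The others are up to 5 bounds, the 3 largest slopes and differences each way, and EGFR. Up to 4 called members of each list were added, with further members that a sentence needs. Members and lists were chosen with earlier results of these data known. A bound sets the mean of the measured group against the lowest signal well above background of each array of the other. Alternatives were a scaling to the 75th percentile, normexp with offset 50 on median signals (the files used hold no mean signal), other probe rules, filters, floors and tests, unpaired time points, fewer time points and, added after the data were seen, each scan day. A leukocyte marker gene of the lists is not reported here.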

Additional observations from a re-analysis of the deposited data

Results flagged for a closer look

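Among the 139 named genes with 6 paired differences, 16 had a time point far from the others, measured as its gap to the nearest value over the whole range. Chance gives about 1 in 20. In 9 of them the outlying pair was that of the 3 h label (5 h of drug), namely CCN1 (0.732), CEBPB (0.736), DHCR7 (0.722), HSP90AB1 (0.761), MET (0.775), MYC (0.631), PES1 (0.683), SLC2A3 (0.674) and TNFAIP3 (0.707). At the 0 h label (2 h of drug), AREG (0.855), BCL6 (0.752), TTK (0.653) and ZNF608 (0.716) stood apart, with AREG at -0.85 beside a median of -1.88 at the other times. At the 4 h label (6 h of drug), ANKRD22 (0.817), EEF1AKMT2 (0.677) and ERBB2 (0.662) did.

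The early response differed from the later one by 4.5 in ETV5, 4.43 in ANKRD22 and 4.33 in MARCHF4, and by -4.55 in SPEF2, -4.44 in ATP6V1B1 and -4.18 in EEF1AKMT2, each by limma's test of the difference. The window and the scan day cannot be fully told apart in these values. Between the lines, PC9GRM2 minus PC9, the response differed by -1.82 in TNFRSF10C, -1.80 in RCSD1, -1.65 in MYB, 2.17 in CXCL8, 2.10 in BNC1 and 1.90 in KLF2, also by a test of the difference. CXCL8, RCSD1 and TNFRSF10C were well above background on 0 of the 12 PC9GRM2 arrays and BNC1 on 1, so that for these 4 genes the value is not a measured difference between the lines. The value of KLF2 rests on the probe used, since its second probe fell far less in PC9.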

How the results depend on the processing

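The count of genes changed by gefitinib was 4705, and 3109 with time points not paired (no replicate block), 509 at a minimum of 2-fold, 126 with every second time point, 881 at the 3 and 4 h labels (5 and 6 h of drug) alone (added after seeing the data) and 3116 to 4846 leaving out a time point. The linear change with time gave 835 genes with the brightest probe, 291 with no filter, 0 at the 0 to 2 h labels alone and 0 to 965 leaving out a time point. Under EGF the count was 2277 unpaired, 544 at 2-fold, 228 with every second time point and 2860 to 4736 leaving out a time point. By scan day it was 2278 at the 0 to 2 h labels and 5008 at the 3 and 4 h labels. With against without EGF gave 0 to 1 leaving out a time point. Early against later gave 2553 at 2-fold, 922 at the 3 and 4 h labels and 5156 to 5657 leaving out an early time point. The line difference, 345, was 805 with normexp, 592 with the mean of probes, 766 with the brightest probe, 5 with no filter, 166 with a filter on the window, 596 with a floor of 16, 6 unpaired, 712 with an intensity trend and robust prior, 32 with the unmoderated paired test, 73 at 2-fold, 0 with every second time point or either scan day, and 0 to 150 leaving out a time point. ACTB had -0.01 with the mean of probes, BID 0.11, HSP90AA1 0.06, HSPD1 0.18, MET 0.05 and TRIB3 0.08 with the brightest probe, and EPHA6 0.00 with a floor of 16. The cause was not tested in any of these. Of the medians of the 28 gene lists, 11 moved by more than the median standard error of the members with normexp, 7 with the mean of probes, 6 with the brightest probe, 3 with the 75th percentile and 3 with no filter. Of the 140 named genes, 95 lost their call with every second time point, 60 at the 3 and 4 h labels, 24 with normexp, 22 with the unmoderated paired test, 15 unpaired, 13 with a floor of 16, and 3 to 17 when a time point was left out, among them ANKRD1, BID, PMAIP1, INSR, DKC1, ICAM1 and HSPA5. Signal over background limits CXCL8, MUC15, DIRAS2, CYP4Z1 and EPHA6 to bounds.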
